A study of Mus musculus with 26 samples.

Results

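Collagen genes and the genes of the enzymes and chaperones that make collagen were followed in cultured mouse mammary fibroblasts. They were chosen by symbol: every listed collagen chain gene, the lysyl oxidases Lox and Loxl1 to Loxl4, the lysyl hydroxylases Plod1 to Plod3, and Pcolce, Serpinh1, Bmp1, P3h1 and Crtap. The rule found 43 of the 12948 genes listed for fibroblasts, 30 of them collagen chains and 13 of them modifying or processing genes. The low-value filter (at least 5 normalized reads in at least 2 libraries) passed 42 of them; Col6a5, which reached at most 4.09 normalized reads, was left out. The study asked how fibroblasts and macrophages act on each other when they grow together, here with the medium of cancer cells or without it. Fibroblasts came from normal mammary fat pads of BALB/c females aged 8 weeks, with 2 mice pooled for each replicate, and were depleted of cells carrying EpCAM or CD45. The fibroblast groups were co-cultures with bone-marrow-derived macrophages in medium conditioned by 4T1 mouse mammary carcinoma cells (4T1 CM, 4 libraries), mono-cultures in 4T1 CM (2 libraries), co-cultures in plain DMEM medium (3 libraries) and mono-cultures in DMEM (3 libraries). The labels give 7 days of culture and 10000 sorted fibroblasts per library for the co-cultures, and neither for the mono-cultures. All fibroblasts grew on collagen I and were sorted as living cells negative for F4/80 and CD11b. Macrophages, grown from bone marrow of BALB/c females, also aged 8 weeks, and sorted as positive for both markers, were used as a check in 3 groups: co-cultures in 4T1 CM (4 libraries), co-cultures in DMEM (3 libraries) and mono-cultures in 4T1 CM (4 libraries).

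Collagens are secreted proteins of chains wound into a triple helix. Fibrillar chains build the load-bearing fibres of connective tissue, network chains form sheets such as the basement membrane, type VI chains form beaded filaments, and fibril-associated chains sit on the surface of fibres. Inside the cell, hydroxylases and the chaperone encoded by Serpinh1 prepare the chains; outside it, proteinases trim the propeptides and lysyl oxidases cross-link the fibres. Fibroblasts are the main source of these genes in the mammary gland, and collagen-rich stroma is a known feature of breast tumours.

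Libraries held 1945980 to 7632366 reads over the listed genes, from the 3' end of transcripts, so a value says how many transcripts were counted and not which isoform. Values are the authors' normalized reads, comparable between libraries for 1 gene. The labels speak of 2 mice per biological replicate but do not tie each library to its mice, and p-values measure the spread between these libraries. All 10 fibroblast markers were listed, and their summed level was between 34722 and 49735 normalized reads in every library. The sum hides changes of single markers. With 4T1 CM, 2 of the 10 rose and 1 fell in mono-culture, and 2 rose in co-culture (limma, adjusted p under 0.05). Of all tested genes 13.3% and 5.85% passed. Dcn averaged 12700 normalized reads in mono-cultures in 4T1 CM and 2818 in mono-cultures in DMEM. The 4 co-cultures in 4T1 CM split into 2 pairs: log2 values correlated at 0.976 between libraries 1 and 2 and at 0.971 between 3 and 4, against 0.951 to 0.959 across the pairs. Markers of other cells moved with the groups. The summed level of 7 Schwann and glial markers was 23.0, 53.1, 260 and 891 in co-cultures in 4T1 CM 1 to 4, 19.8 to 37.5 in mono-cultures in 4T1 CM, 1252 to 2631 in co-cultures in DMEM and 1288 to 1622 in mono-cultures in DMEM. The sum of 15 macrophage markers ranged over 229 to 1315 in co-cultures in 4T1 CM, 675 to 699 in mono-cultures in 4T1 CM, 2795 to 6289 in co-cultures in DMEM and 173 to 214 in mono-cultures in DMEM. Endothelial marker sums over 10 genes were 81.7 to 168, 134 to 154, 233 to 564 and 118 to 149 in the same order of groups, and sums over the 4 listed mural markers were 230 to 359, 190 to 237, 752 to 1199 and 441 to 855. Muscle marker sums over 7 genes were 167 to 519 in co-cultures in 4T1 CM, 61.0 to 71.1 in mono-cultures in 4T1 CM, 731 to 1453 in co-cultures in DMEM and 636 to 3297 in mono-cultures in DMEM. The part of these markers' cells in the results that follow was not tested, and fewer cells of a type cannot be told apart from less RNA per cell.

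Start regions are shown for 4 of the 5 genes that fell with 4T1 CM in both cultures and for 2 of the 6 that rose in mono-culture, so that the loci behind the results can be seen; Col14a1, Col1a1, Col12a1 and Loxl2 had no matched window. Each is RefSeq's window of 250 bases before to 50 bases after the gene's start on GRCm38.p6, and capitals mark matches on either strand. The letters searched were TATAAA for a TATA box, CCAAT for a CCAAT box, GGGCGG for a GC box and TGANTCA for an AP-1 element, and no match shown overlapped another. The first 4 belong to genes that fell with 4T1 CM in co-culture and in mono-culture: Col8a1 at chr16:57754688-57754987 (minus strand), Col18a1 at chr10:77166481-77166780 (minus strand), Col27a1 at chr4:63215162-63215461 (plus strand) and Col28a1 at chr6:8192568-8192867 (minus strand).
Col8a1: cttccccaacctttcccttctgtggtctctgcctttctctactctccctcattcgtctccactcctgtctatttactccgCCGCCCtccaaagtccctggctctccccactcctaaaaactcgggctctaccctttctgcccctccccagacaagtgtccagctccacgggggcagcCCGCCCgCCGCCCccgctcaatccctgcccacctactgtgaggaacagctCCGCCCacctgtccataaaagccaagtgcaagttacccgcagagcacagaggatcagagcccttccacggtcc
Col18a1: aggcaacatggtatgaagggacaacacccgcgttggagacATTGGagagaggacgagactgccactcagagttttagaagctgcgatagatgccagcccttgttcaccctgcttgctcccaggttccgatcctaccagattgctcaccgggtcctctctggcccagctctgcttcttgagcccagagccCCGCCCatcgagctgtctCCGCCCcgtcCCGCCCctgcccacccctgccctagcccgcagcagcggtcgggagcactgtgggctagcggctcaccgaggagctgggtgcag
Col27a1: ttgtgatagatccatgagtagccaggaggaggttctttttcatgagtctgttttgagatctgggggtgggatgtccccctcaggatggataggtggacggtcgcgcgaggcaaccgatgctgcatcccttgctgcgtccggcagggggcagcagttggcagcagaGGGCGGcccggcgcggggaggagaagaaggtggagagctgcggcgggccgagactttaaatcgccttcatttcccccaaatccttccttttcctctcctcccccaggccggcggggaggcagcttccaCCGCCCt
Col28a1: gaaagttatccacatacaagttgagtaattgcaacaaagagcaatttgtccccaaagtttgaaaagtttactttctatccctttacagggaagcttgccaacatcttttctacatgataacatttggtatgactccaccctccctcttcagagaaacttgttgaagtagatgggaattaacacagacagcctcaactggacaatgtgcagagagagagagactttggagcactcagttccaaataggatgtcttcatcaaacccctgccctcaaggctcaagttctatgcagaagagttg
Col5a3, at chr9:20815018-20815317 (minus strand), and Col16a1, at chr4:130047590-130047889 (plus strand), are shown because, of the 3 genes that rose with 4T1 CM in mono-culture and had a window, their changes were larger than that of P3h1.
Col5a3: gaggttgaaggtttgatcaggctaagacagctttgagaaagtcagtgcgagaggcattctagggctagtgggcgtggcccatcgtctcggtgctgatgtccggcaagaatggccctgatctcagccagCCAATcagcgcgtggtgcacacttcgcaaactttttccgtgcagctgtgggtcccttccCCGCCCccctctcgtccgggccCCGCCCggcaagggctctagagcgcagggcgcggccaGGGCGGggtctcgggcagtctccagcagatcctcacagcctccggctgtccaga
Col16a1: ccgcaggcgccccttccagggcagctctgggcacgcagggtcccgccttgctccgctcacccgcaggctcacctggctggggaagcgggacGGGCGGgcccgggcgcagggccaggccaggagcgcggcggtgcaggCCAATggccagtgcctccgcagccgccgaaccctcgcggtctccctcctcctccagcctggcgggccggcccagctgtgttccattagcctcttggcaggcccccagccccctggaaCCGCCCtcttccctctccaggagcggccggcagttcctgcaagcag
Col8a1 held 4 GC boxes, Col18a1 3, Col27a1 2 and Col28a1 0, while Col5a3 held 3 and Col16a1 2, so the counts overlapped between genes that fell and genes that rose. A GC box was present in 24 of the 32 windows found for members (75.0%) and in 35.7% of all 32851 windows. The sets are unlike: each member has 1 window, the nearest to its GENCODE start, while all windows were taken without such a choice. No enrichment is therefore read from these shares. CCAAT was in 11 member windows (34.4%) against 37.4% of all, TATAAA in 4 (12.5%) against 13.6%, and TGANTCA in 1 (3.12%) against 7.81%. The windows differ in base composition, from 125 G or C bases in Col28a1 to 223 in Col16a1 among those printed. A match is a description of letters, and 3' end reads do not show which start was used; for Col27a1 the RefSeq start lies 1408 bases from the GENCODE vM21 start.

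With 4T1 CM, collagen genes moved in both directions in mono-cultured fibroblasts, while those that passed the test in co-culture were all lower. In mono-culture, 6 of the 42 tested genes rose (Col1a1, Col5a3, Col12a1, Col16a1, Loxl2 and P3h1) and 6 fell (Col8a1, Col14a1, Col18a1, Col28a1, Col27a1 and Loxl4), where 13.3% of all 12401 tested genes passed the same limma test at an adjusted p under 0.05, 6.36% higher and 6.93% lower. In co-culture 13 fell: Col14a1, Col28a1, Col18a1, Col8a1, Col15a1, Col6a2, Col6a3, Col27a1, Col6a1, Col4a5, Col3a1, Col5a1 and Bmp1, where 5.85% of all genes passed, 2.33% higher and 3.52% lower. None of the 42 rose there by limma, with 2 higher at an unadjusted p under 0.05 (Col7a1 and Col23a1), 0 higher by edgeR and 1 by DESeq2 (Col23a1). The 5 genes that fell in both cultures were Col8a1, Col14a1, Col18a1, Col27a1 and Col28a1, so 20 passed in at least 1 culture and 0 passed with opposite directions. The 42 genes had a median log2 change of 0.08 in mono-culture and -0.29 in co-culture. For the 29 tested collagen chains the medians were -0.02 and -0.44, where the median of all tested genes was -0.01 in each. In each of these 25 calls the CM libraries did not overlap the DMEM libraries of the same culture. As these genes were picked by the test, the lack of overlap is no further support for them. The share of all genes without overlap was not counted.

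**Figure D1:**
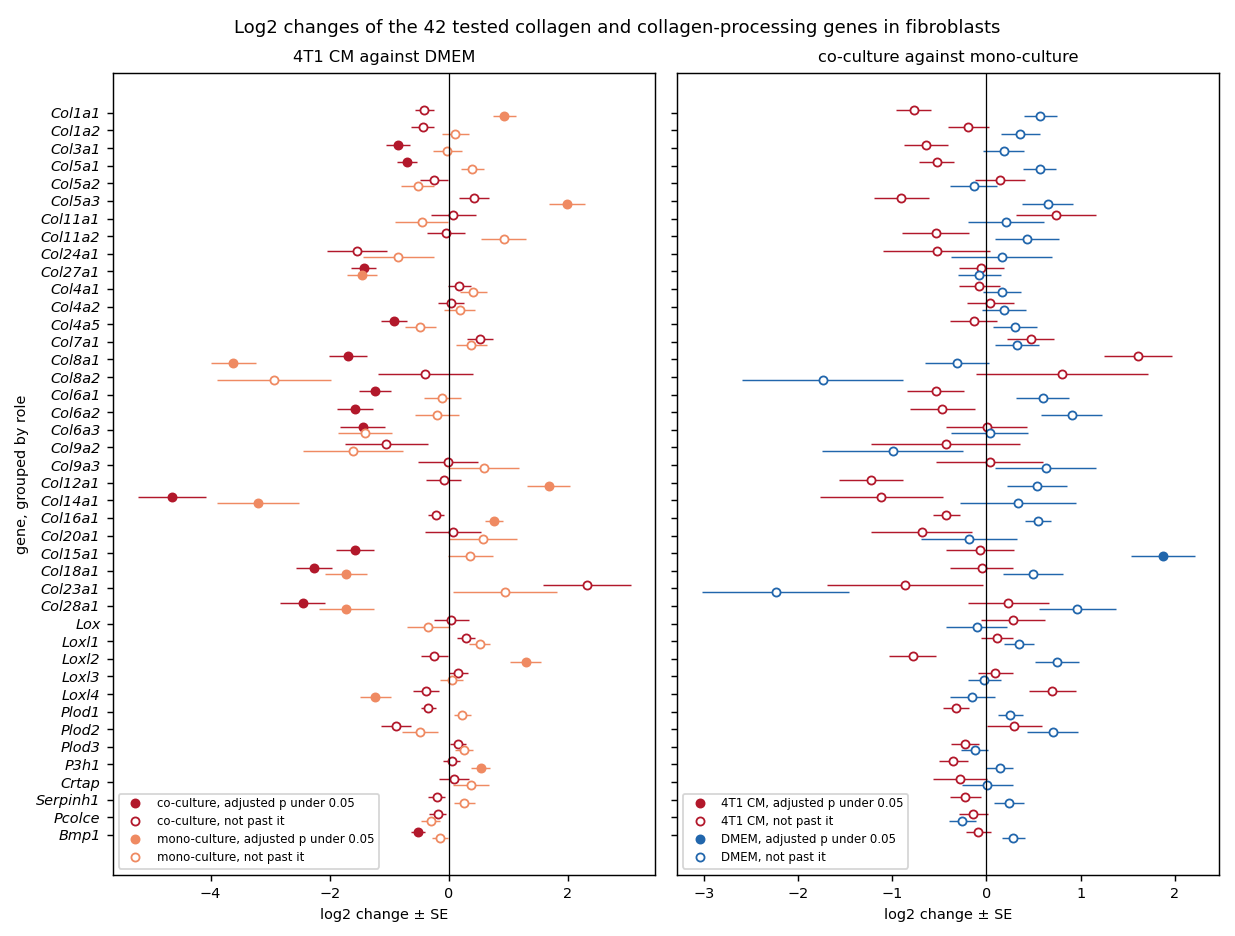
Log2 change ± SE of the 42 tested genes, grouped by role from top to bottom, for 4T1 CM against DMEM (left) and for co-culture against mono-culture (right); filled symbols passed limma at an adjusted p under 0.05. On the left 13 co-culture symbols are filled, all below 0, and 12 mono-culture symbols are filled on both sides of 0; on the right 1 symbol, Col15a1 in DMEM, is filled.

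Among the fibrillar chains, 10 were tested; 2 rose and 1 fell with 4T1 CM in mono-culture, and 3 fell in co-culture. Col1a1 (chr11:94936224-94953042, plus strand), the main chain of type I collagen, had 6724, 5843, 6536 and 5880 normalized reads in co-cultures in 4T1 CM, 9756 and 11568 in mono-cultures in 4T1 CM. Col1a1 in DMEM was at 7775, 7772 and 9451 in co-cultures and 4400, 6900 and 5710 in mono-cultures. It rose in mono-culture by a log2 change of 0.93 (SE 0.20, adjusted p = 0.00806, limma) and did not pass in co-culture, at -0.41 (SE 0.16, adjusted p = 0.18, limma). In mono-culture both CM libraries lay above every DMEM library; in co-culture all 4 CM libraries lay below every DMEM library. Its partner chain Col1a2 passed in neither culture, with 29372 to 40230 normalized reads in co-cultures in 4T1 CM, 32364 and 49035 in mono-cultures in 4T1 CM, 44403 to 50541 in co-cultures in DMEM and 35968 to 38037 in mono-cultures in DMEM. The Col1a1 to Col1a2 ratio of normalized reads was 0.167, 0.169, 0.180 and 0.200 in co-cultures in 4T1 CM, 0.301 and 0.236 in mono-cultures in 4T1 CM, 0.154, 0.165 and 0.213 in co-cultures in DMEM, and 0.116, 0.188 and 0.159 in mono-cultures in DMEM. The ratio was thus highest in the 2 mono-cultures in 4T1 CM.

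Col5a3 (chr9:20770050-20815067, minus strand), a chain of type V collagen, which regulates fibril formation, had 602, 758, 611 and 481 normalized reads in co-cultures in 4T1 CM, 1289 and 996 in mono-cultures in 4T1 CM. Col5a3 in DMEM was at 653, 471 and 296 in co-cultures and 405, 246 and 235 in mono-cultures. It rose in mono-culture by 1.98 (SE 0.30, adjusted p = 0.00127, limma), with no overlap between media; the co-culture value was 0.43 (SE 0.25, adjusted p = 0.402, limma), and there the libraries overlapped. Col5a1 (chr2:27886425-28039514, plus strand), the chain present in most type V trimers, had 2785, 3027, 2849 and 1991 normalized reads in co-cultures in 4T1 CM, 3674 and 3923 in mono-cultures in 4T1 CM. Col5a1 in DMEM was at 4928, 4483 and 3521 in co-cultures and 2580, 3066 and 3034 in mono-cultures. In co-culture Col5a1 fell by 0.70 on the log2 scale (SE 0.16, adjusted p = 0.0227, limma), with every CM library below every DMEM library, while in mono-culture its value was 0.40 (SE 0.20, adjusted p = 0.201, limma). Col3a1 (chr1:45311538-45349706, plus strand), the type III chain that shares fibres with type I, had 25224, 17879, 26217 and 19844 normalized reads in co-cultures in 4T1 CM, 32163 and 36817 in mono-cultures in 4T1 CM. Col3a1 in DMEM was at 50911, 37862 and 32406 in co-cultures and 35194, 37545 and 32318 in mono-cultures. Its co-culture change was -0.85 (SE 0.21, adjusted p = 0.0266, limma), without overlap, and its mono-culture value was -0.02 (SE 0.25, adjusted p = 0.965, limma), with overlap. Col27a1 (chr4:63214004-63334991, plus strand), a fibrillar chain best known from cartilage, had 78.3, 83.0, 86.0 and 143 normalized reads in co-cultures in 4T1 CM, 96.7 and 99.8 in mono-cultures in 4T1 CM. Col27a1 in DMEM was at 316, 191 and 280 in co-cultures and 279, 282 and 252 in mono-cultures. It fell in mono-culture by 1.45 (SE 0.25, adjusted p = 0.00286, limma) and in co-culture by 1.43 (SE 0.21, adjusted p = 0.00167, limma), and every CM library lay below every DMEM library.

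Several fibrillar calls depended on single libraries. Without mono-culture in 4T1 CM 2 the Col1a1 change was 0.81 (adjusted p = 0.0536, limma). Without co-culture in DMEM 1 the adjusted p was 0.136 for Col3a1 and 0.124 for Col5a1, and without co-culture in DMEM 2 it was 0.0655 and 0.0784; Col3a1 was also lost without co-culture in 4T1 CM 2 (adjusted p = 0.0771) or 4 (adjusted p = 0.0529). Col5a3 and Col27a1 passed with any 1 library left out. Of the fibrillar genes that did not pass, Col24a1 had 6.26, 8.30, 37.4 and 35 normalized reads in co-cultures in 4T1 CM and 43.4 to 65.4 in co-cultures in DMEM, a value of -1.54 (SE 0.50, adjusted p = 0.0944, limma). Col24a1 was called without co-culture in 4T1 CM 3 (-1.92, adjusted p = 0.0292) or 4 (-1.89, adjusted p = 0.0328, limma). With both left out, an alternative chosen after seeing the data, it was -2.63 (adjusted p = 0.000134, limma). Col5a2, Col11a1 and Col11a2 had 138 to 280, 17.8 to 63.4 and 29.5 to 103 normalized reads over the 12 libraries; Col11a2 was called in mono-culture without co-culture in 4T1 CM 3 (adjusted p = 0.0415, limma).

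**Figure D2:**
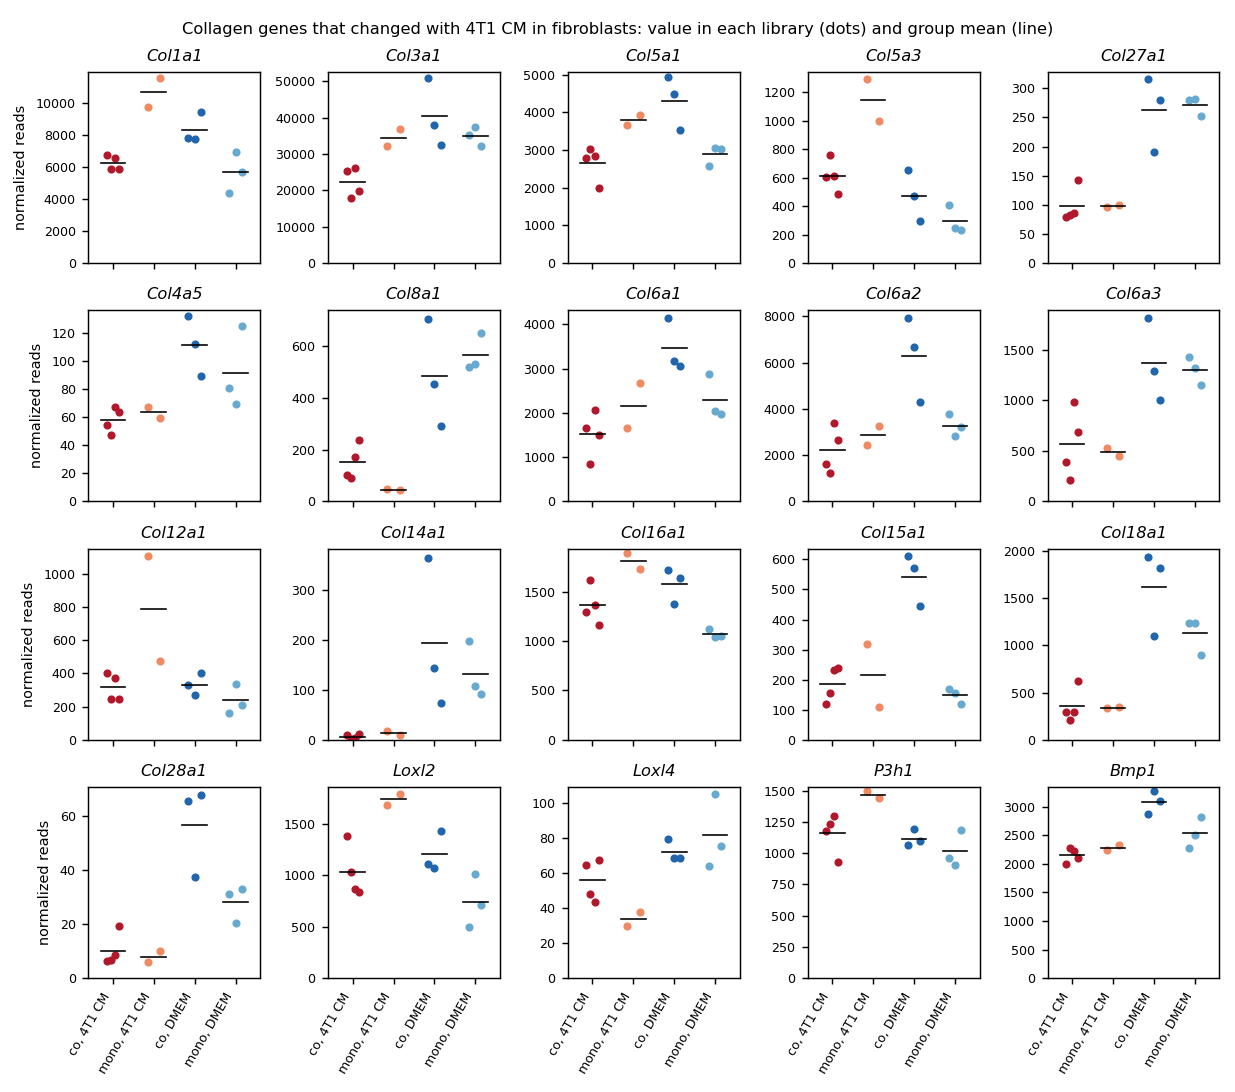
Normalized reads (linear axes starting at 0) in each library for the 20 genes that passed the test for 4T1 CM in at least 1 culture; dots are libraries, lines are group means, and groups run from co-cultures in 4T1 CM on the left to mono-cultures in DMEM on the right. Col8a1, Col14a1, Col18a1, Col27a1 and Col28a1 sit lower in both CM groups than in both DMEM groups, while Col15a1 stands highest in co-cultures in DMEM, at 446 to 611.

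Of the network-forming chains, Col8a1 fell with 4T1 CM in both cultures. Col8a1 (chr16:57624258-57754737, minus strand), a short chain of type VIII collagen found in vessel walls and under the corneal endothelium, had 101, 92.2, 171 and 239 normalized reads in co-cultures in 4T1 CM, 47.4 and 42.9 in mono-cultures in 4T1 CM. Col8a1 in DMEM was at 705, 455 and 291 in co-cultures and 520, 532 and 649 in mono-cultures. It fell by 3.62 on the log2 scale in mono-culture (SE 0.38, adjusted p = 0.000108, limma) and by 1.69 in co-culture (SE 0.32, adjusted p = 0.00768, limma). No CM library reached a DMEM library, and both calls held with any 1 library left out. Its partner Col8a2 had 1.04, 0.83, 14.8 and 15.8 normalized reads in co-cultures in 4T1 CM, 1.97 and 2.47 in mono-cultures in 4T1 CM, 17.9, 5.20 and 2.41 in co-cultures in DMEM, and 34.8, 20.3 and 18.5 in mono-cultures in DMEM, and passed in neither culture (mono-culture -2.93, SE 0.96, adjusted p = 0.0585, limma). In mono-culture Col8a2 was called by DESeq2 (adjusted p = 0.0357), with a pseudocount of 5 (adjusted p = 0.0391) and without any 1 co-culture in 4T1 CM (adjusted p = 0.0386 to 0.0479, limma). The split of Col8a2 follows the 2 pairs of co-cultures in 4T1 CM. Col4a5 (chrX:141475385-141689234, plus strand), a basement membrane chain, had 54.3, 47.3, 66.9 and 63.3 normalized reads in co-cultures in 4T1 CM, 67.1 and 59.4 in mono-cultures in 4T1 CM. Col4a5 in DMEM was at 132, 112 and 89.3 in co-cultures and 80.3, 69.0 and 125 in mono-cultures. It fell in co-culture by 0.92 (SE 0.22, adjusted p = 0.0242, limma) without overlap, and its mono-culture value was -0.48 (SE 0.26, adjusted p = 0.247, limma). Leaving out co-culture in DMEM 1 or 2, or co-culture in 4T1 CM 1 or 2, gave adjusted p values of 0.139, 0.0761, 0.0628 and 0.0646 for Col4a5.

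The main basement membrane chains Col4a1 and Col4a2, which lie head to head on chr8 and form 1 trimer, passed in none of the comparisons. The RefSeq windows of the 2 genes share 78 bases, shown in capitals in the window of Col4a2 at chr8:11312555-11312854 (plus strand).
Col4a2: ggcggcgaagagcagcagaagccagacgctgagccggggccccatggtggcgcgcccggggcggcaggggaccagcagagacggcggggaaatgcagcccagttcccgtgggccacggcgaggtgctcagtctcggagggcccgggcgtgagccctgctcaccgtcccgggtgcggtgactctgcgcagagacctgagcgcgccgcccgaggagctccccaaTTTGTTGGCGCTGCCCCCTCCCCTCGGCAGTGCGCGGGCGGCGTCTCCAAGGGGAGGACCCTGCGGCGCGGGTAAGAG
Col4a1 had 949 to 1579 normalized reads in co-cultures in 4T1 CM, 1198 and 1453 in mono-cultures in 4T1 CM, 894 to 1427 in co-cultures in DMEM and 950 to 1079 in mono-cultures in DMEM, and Col4a2 had 1453 to 2320, 1479 and 2239, 1490 to 2494 and 1482 to 1781. Their ratio stayed between 0.553 and 0.810 over the 12 libraries. Col7a1, the anchoring fibril chain of skin, had 62.6 to 104, 49.4 and 61.9, 45.7 to 70.0 and 37.9 to 44.7 in the same groups and did not pass.

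All 3 tested chains of type VI collagen, the beaded filament collagen of the pericellular matrix, fell with 4T1 CM in co-culture and none passed in mono-culture. Col6a1 (chr10:76708792-76726168, minus strand) had 1655, 854, 2062 and 1509 normalized reads in co-cultures in 4T1 CM, 1650 and 2682 in mono-cultures in 4T1 CM, 4155, 3169 and 3062 in co-cultures in DMEM, and 2890, 2039 and 1978 in mono-cultures in DMEM. Col6a2 (chr10:76595762-76623630, minus strand), its neighbour on the chromosome, had 1617, 1214, 3392 and 2661 in co-cultures in 4T1 CM, 2456 and 3281 in mono-cultures in 4T1 CM, 7924, 6657 and 4307 in co-cultures in DMEM, and 3766, 2843 and 3219 in mono-cultures in DMEM. Col6a3 (chr1:90765923-90843971, minus strand), the largest chain, had 394, 213, 981 and 689 in co-cultures in 4T1 CM, 531 and 446 in mono-cultures in 4T1 CM, 1812, 1288 and 1009 in co-cultures in DMEM, and 1434, 1324 and 1150 in mono-cultures in DMEM. In co-culture no CM library reached a DMEM library for any of the 3; in mono-culture Col6a1 and Col6a2 overlapped, and Col6a3 did not. The co-culture changes were -1.24 for Col6a1 (SE 0.26, adjusted p = 0.0139, limma), -1.57 for Col6a2 (SE 0.30, adjusted p = 0.00844, limma) and -1.45 for Col6a3 (SE 0.38, adjusted p = 0.0393, limma). The mono-culture values were -0.11 (SE 0.32, adjusted p = 0.859, limma), -0.20 (SE 0.36, adjusted p = 0.766, limma) and -1.41 (SE 0.46, adjusted p = 0.056, limma); Col6a3 was called in mono-culture by DESeq2 (adjusted p = 0.0133) and by limma without co-culture in 4T1 CM 2 (adjusted p = 0.0103) or 3 (adjusted p = 0.0228). Without co-culture in DMEM 1 the co-culture adjusted p was 0.0806 for Col6a1, 0.0553 for Col6a2 and 0.196 for Col6a3; Col6a3 was also lost without any of 9 other libraries (adjusted p = 0.0503 to 0.106) and by edgeR (adjusted p = 0.0644). With co-cultures in 4T1 CM 1 and 2 left out, chosen after seeing the data, Col6a2 passed, while Col6a1 was -0.96 (adjusted p = 0.0551) and Col6a3 -0.69 (adjusted p = 0.156, limma).

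Fibril-associated chains divided in mono-culture: Col12a1 and Col16a1 rose and Col14a1 fell. Col12a1 (chr9:79598991-79718831, minus strand), which coats type I fibres in tissues under tension, had 403, 247, 374 and 244 normalized reads in co-cultures in 4T1 CM, 1104 and 475 in mono-cultures in 4T1 CM. Col12a1 in DMEM was at 329, 268 and 402 in co-cultures and 164, 337 and 209 in mono-cultures. Its mono-culture change was 1.68 (SE 0.36, adjusted p = 0.00871, limma), without overlap, and its co-culture value was -0.09 (SE 0.30, adjusted p = 0.923, limma), with overlap. The 2 mono-cultures in 4T1 CM differ widely, and without the first the change was 1.07 (adjusted p = 0.132, limma). Col16a1 (chr4:130047840-130099283, plus strand), a minor fibril-associated chain, had 1291, 1619, 1363 and 1167 in co-cultures in 4T1 CM, 1893 and 1734 in mono-cultures in 4T1 CM. Col16a1 in DMEM was at 1718, 1377 and 1636 in co-cultures and 1121, 1042 and 1052 in mono-cultures. It rose in mono-culture by 0.76 (SE 0.16, adjusted p = 0.00697, limma), without overlap, and was at -0.22 in co-culture (SE 0.13, adjusted p = 0.406, limma); without mono-culture in 4T1 CM 1 the rise was 0.69 (adjusted p = 0.0697, limma). Col14a1 (chr15:55307750-55520803, plus strand), a fibril-surface chain that limits lateral growth of fibrils, had 10.4, 1.66, 3.48 and 10.8 in co-cultures in 4T1 CM, 17.8 and 9.07 in mono-cultures in 4T1 CM. Col14a1 in DMEM was at 365, 143 and 74.8 in co-cultures and 199, 108 and 91.6 in mono-cultures. It fell by 4.65 in co-culture (SE 0.58, adjusted p = 0.000477, limma) and by 3.20 in mono-culture (SE 0.69, adjusted p = 0.00886, limma); the highest CM library, 17.8, was under the lowest DMEM library, 74.8. Without mono-culture in 4T1 CM 2 the mono-culture change was -2.75 (adjusted p = 0.0609, limma), while the co-culture call held with any 1 library left out. Col20a1, Col9a2 and Col9a3 had 16.5 to 115, 0 to 10.7 and 4.62 to 24.0 normalized reads over the 12 libraries and did not pass.

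Both multiplexins, the chains of basement membrane zones, fell with 4T1 CM in co-culture. Col18a1 (chr10:77052178-77166548, minus strand), whose end is released as endostatin, had 289, 210, 298 and 620 normalized reads in co-cultures in 4T1 CM, 332 and 342 in mono-cultures in 4T1 CM. Col18a1 in DMEM was at 1935, 1095 and 1819 in co-cultures and 1235, 1241 and 900 in mono-cultures. It fell by 2.26 in co-culture (SE 0.30, adjusted p = 0.00068, limma) and by 1.72 in mono-culture (SE 0.35, adjusted p = 0.00697, limma), without overlap; without mono-culture in 4T1 CM 1 the mono-culture change was -1.70 (adjusted p = 0.0581, limma). Col15a1 (chr4:47208161-47313167, plus strand) had 118, 156, 234 and 239 in co-cultures in 4T1 CM, 320 and 111 in mono-cultures in 4T1 CM. Col15a1 in DMEM was at 611, 571 and 446 in co-cultures and 170, 156 and 118 in mono-cultures. It fell with 4T1 CM in co-culture by 1.58 (SE 0.32, adjusted p = 0.0105, limma), without overlap, and was at 0.36 in mono-culture (SE 0.38, adjusted p = 0.568, limma), with overlap. Without co-culture in DMEM 1 the co-culture change of Col15a1 was -1.49 (adjusted p = 0.0591, limma). With co-cultures in 4T1 CM 1 and 2 left out, chosen after seeing the data, it was -1.18 (adjusted p = 0.0887, limma).

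Col28a1 (chr6:7997808-8192617, minus strand), a chain found around the glial cells of peripheral nerves in the mouse, had 6.26, 6.64, 8.69 and 19.2 normalized reads in co-cultures in 4T1 CM, 5.92 and 9.90 in mono-cultures in 4T1 CM. Col28a1 in DMEM was at 65.4, 37.4 and 67.6 in co-cultures and 31.2, 20.3 and 33.1 in mono-cultures. It fell by 2.45 in co-culture (SE 0.38, adjusted p = 0.00224, limma) and by 1.72 in mono-culture (SE 0.46, adjusted p = 0.024, limma), without overlap. The mono-culture adjusted p was 0.184 without the first CM library, and leaving out DMEM mono-culture 1 or 3 gave 0.0795 or 0.0721. The Schwann and glial markers moved with Col28a1: 7 of 7 fell in co-culture and 6 of 7 in mono-culture. Among the co-cultures in 4T1 CM, library 4 had the highest Schwann sum, 891, and the highest value of Col28a1, Col18a1, Col27a1, Col8a1 and Col14a1. Col14a1 was nearly as high in library 1, which had the lowest Schwann sum, 23.0. Other markers also fell with 4T1 CM: 7 of 7 muscle and 3 of 4 mural markers in mono-culture, where 1 mural marker rose. In co-culture 1 of 7 muscle, 3 of 4 mural, 6 of 10 endothelial and 13 of 15 macrophage markers fell. In mono-culture 1 of 10 endothelial markers fell and 1 rose, and 2 of 15 macrophage markers rose. The part of all these cells was not tested. Col23a1, a transmembrane chain, had 0 reads in all 3 co-cultures in DMEM, where 3 reads is the limit that a count of 0 allows in a library, and 0.83 to 22.6 normalized reads in the 9 other libraries. It passed limma in none of the comparisons with all libraries; for 4T1 CM in co-culture DESeq2 called it higher (adjusted p = 0.0138), as did limma without co-culture in 4T1 CM 2 (adjusted p = 0.0425). A fitted change against a group at 0 depends on the pseudocount or tool, so none is given.

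Of the 5 lysyl oxidases, which start the cross-links between collagen molecules, Loxl2 rose and Loxl4 fell with 4T1 CM in mono-culture and none passed in co-culture. Loxl2 (chr14:69609068-69695834, plus strand) had 1380, 1029, 869 and 837 normalized reads in co-cultures in 4T1 CM, 1682 and 1792 in mono-cultures in 4T1 CM. Loxl2 in DMEM was at 1110, 1069 and 1425 in co-cultures and 498, 1007 and 711 in mono-cultures. It rose by 1.29 in mono-culture (SE 0.26, adjusted p = 0.00695, limma), without overlap, and this held with any 1 library left out; the co-culture value was -0.24 (SE 0.22, adjusted p = 0.63, limma). Loxl4 (chr19:42593982-42612813, minus strand) had 64.7, 48.2, 43.4 and 67.5 in co-cultures in 4T1 CM, 29.6 and 37.9 in mono-cultures in 4T1 CM. Loxl4 in DMEM was at 79.7, 68.6 and 68.8 in co-cultures and 64.5, 106 and 75.4 in mono-cultures. It fell by 1.23 in mono-culture (SE 0.26, adjusted p = 0.00862, limma), without overlap, with a change of -1.06 without mono-culture in 4T1 CM 1 (adjusted p = 0.0869, limma); the co-culture value was -0.39 (SE 0.22, adjusted p = 0.376, limma). Lox had 4755, 5036, 8517 and 8547 in co-cultures in 4T1 CM, along the split of those 4 libraries, 3445 and 8192 in mono-cultures in 4T1 CM, 4742 to 8481 in co-cultures in DMEM and 6079 to 7411 in mono-cultures in DMEM, and did not pass. Loxl1, known for elastic fibres, had 4479 to 5038, 3917 and 4837, 3265 to 4483 and 2739 to 3642 in the same groups and did not pass (mono-culture 0.52, SE 0.18, adjusted p = 0.0714, limma; 0.0388 by DESeq2 and 0.0437 without mono-culture in DMEM 3), and Loxl3 had 228 to 382 over the 12 libraries.

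Of the 8 other modifying and processing genes, P3h1 rose with 4T1 CM in mono-culture and Bmp1 fell in co-culture. P3h1 (chr4:119232915-119248975, plus strand), a prolyl 3-hydroxylase that works in 1 complex with Crtap, had 1179, 1236, 1298 and 934 normalized reads in co-cultures in 4T1 CM, 1500 and 1439 in mono-cultures in 4T1 CM. P3h1 in DMEM was at 1065, 1191 and 1097 in co-cultures and 962, 910 and 1185 in mono-cultures. It rose in mono-culture by 0.54 (SE 0.16, adjusted p = 0.0436, limma), without overlap, and was at 0.05 in co-culture (SE 0.14, adjusted p = 0.906, limma); the call was lost without any of 8 single libraries (adjusted p = 0.0513 to 0.194, limma) and by edgeR (adjusted p = 0.0579). Bmp1 (chr14:70474558-70520234, minus strand), the procollagen C-proteinase, had 2004, 2274, 2234 and 2110 in co-cultures in 4T1 CM, 2243 and 2325 in mono-cultures in 4T1 CM. Bmp1 in DMEM was at 2868, 3282 and 3099 in co-cultures and 2279, 2506 and 2817 in mono-cultures. It fell in co-culture by 0.52 (SE 0.12, adjusted p = 0.0183, limma), without overlap, and was at -0.14 in mono-culture (SE 0.14, adjusted p = 0.525, limma). The Bmp1 call was lost without co-culture in 4T1 CM 1 (adjusted p = 0.0547), co-culture in DMEM 2 (adjusted p = 0.0742) or 3 (adjusted p = 0.0501, limma). Pcolce, which enhances Bmp1, did not pass; it had 5259 to 6982 in co-cultures in 4T1 CM, 6335 and 7322 in mono-cultures in 4T1 CM, 6697 to 7534 in co-cultures in DMEM and 8193 to 8548 in mono-cultures in DMEM. Serpinh1, the collagen chaperone HSP47, had 12611 to 17147 normalized reads in all 12 libraries, and Crtap 326 to 772. Among the lysyl hydroxylases, Plod1, Plod2 and Plod3 ranged over 1530 to 2499, 554 to 1991 and 2296 to 3203, and none passed; the co-culture value of Plod2 was -0.89 (SE 0.26, adjusted p = 0.0569, limma). Plod2 was called in co-culture by DESeq2 (adjusted p = 0.0165), after quantile normalization (adjusted p = 0.0408) and without co-culture in 4T1 CM 2 (adjusted p = 0.0238) or co-culture in DMEM 3 (adjusted p = 0.0291, limma).

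Col15a1 was the 1 member that rose in co-culture with macrophages in DMEM. Between co-cultures and mono-cultures in DMEM, 1 of the 42 genes passed; Col15a1 rose by 1.87 (SE 0.34, adjusted p = 0.0193, limma) with no overlap, where 1.00% of all tested genes passed, 0.855% higher and 0.145% lower. Left-out libraries decide this call: without any 1 of the 6 DMEM libraries the adjusted p of Col15a1 was 0.0612 to 0.0967 (limma), with changes of 1.72 to 2.01. The median over the 42 genes was 0.25 and over the chains 0.33, against 0.00 over all genes. Macrophage markers moved with it, 12 of 15 higher in co-cultures in DMEM. There the estimated share of macrophage RNA was 0.976, 1.04 and 1.84%. In co-cultured macrophages in DMEM, Col15a1 itself stood at 4.34% of its level in the fibroblasts. Endothelial and mural markers moved the same way: 9 of 10 endothelial markers had a positive change (median 1.72, 0 called by limma). Of the 4 tested mural markers, 4 had a positive change (median 0.73, 1 called). The part of these cells in the Col15a1 change was not tested. DESeq2 on the recovered reads called 2 genes, Col15a1 and Col16a1 (0.56, adjusted p = 0.0166). Between co-cultures and mono-cultures in 4T1 CM limma and edgeR called 0 of the 42, and limma called 0.0242% of all genes. At an unadjusted p under 0.05 there were 11 members. No share of all genes is given for this count or for the DESeq2 calls in this paragraph. DESeq2 called 2, Col1a1 lower (-0.77) and Col8a1 higher (1.75), each with an adjusted p of 0.0171, and limma called Col12a1 without mono-culture in 4T1 CM 2 (adjusted p = 0.0235).

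Whether the effect of 4T1 CM differed between co-culture and mono-culture was tested as an interaction, and no member passed by limma. Of all genes 0.145% did, 0.0323% with a positive and 0.113% with a negative difference. At an unadjusted p under 0.05 there were 14 members, while edgeR called 0 and DESeq2 8. The shares of all genes at that unadjusted p and by DESeq2 are not given, so these counts have no baseline here. Col1a1 had the smallest adjusted p, 0.063 (limma), with a difference of -1.34 (SE 0.26), followed by Col16a1 at -0.97 (SE 0.20, adjusted p = 0.088, limma) and Loxl2 at -1.53 (SE 0.34, adjusted p = 0.103, limma). DESeq2 called these 3 and also Col5a1 (-1.09), Col5a3 (-1.57), Col12a1 (-1.82) and Col15a1 (-2.06) as lower and Col8a1 (1.98) as higher, with adjusted p values of 0.000116 to 0.0282. With 1 library left out limma called Col1a1 without mono-culture in DMEM 2 (adjusted p = 0.0496), Col16a1 without co-culture in 4T1 CM 2 (adjusted p = 0.0318), and, once mono-culture in 4T1 CM 2 was dropped, Col12a1 (adjusted p = 0.0232) and Col15a1 (adjusted p = 0.0103). The call of a difference between cultures therefore depends on the tool and on single libraries. The median difference over the 42 genes was -0.45 and over the 29 chains -0.55, against 0.00 over all genes; all 15 tested folding and secretion genes also had a difference below 0, of which limma called 0 (3 at an unadjusted p under 0.05). With co-cultures in 4T1 CM 1 and 2 left out, chosen after seeing the data, limma called 6 members, Col1a1, Col5a1, Col16a1 and Loxl2 lower and Col8a1 and Col8a2 higher. The share of all genes is not given for this count either.

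Added over the 30 chains, collagens made up 2.19, 1.70, 2.16 and 1.73% of reads in co-cultures in 4T1 CM, 2.30 and 2.87% in mono-cultures in 4T1 CM, 3.56, 2.93 and 2.69% in co-cultures in DMEM, and 2.46, 2.46 and 2.28% in mono-cultures in DMEM. The co-cultures in 4T1 CM were the lowest of all and the co-cultures in DMEM were, with 1 mono-culture in 4T1 CM, the highest. Col1a2 and Col3a1, with means of 35117 and 22291 normalized reads in co-cultures in 4T1 CM, were the largest parts of the sum there. The 13 modifying and processing genes took 0.994 to 1.02% and 1.04 to 1.17% of reads in the 2 pairs of co-cultures in 4T1 CM, 1.08 and 1.21% in mono-cultures in 4T1 CM, 1.07 to 1.22% in co-cultures in DMEM and 1.03 to 1.15% in mono-cultures in DMEM. No test was made on these sums.

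**Figure D3:**
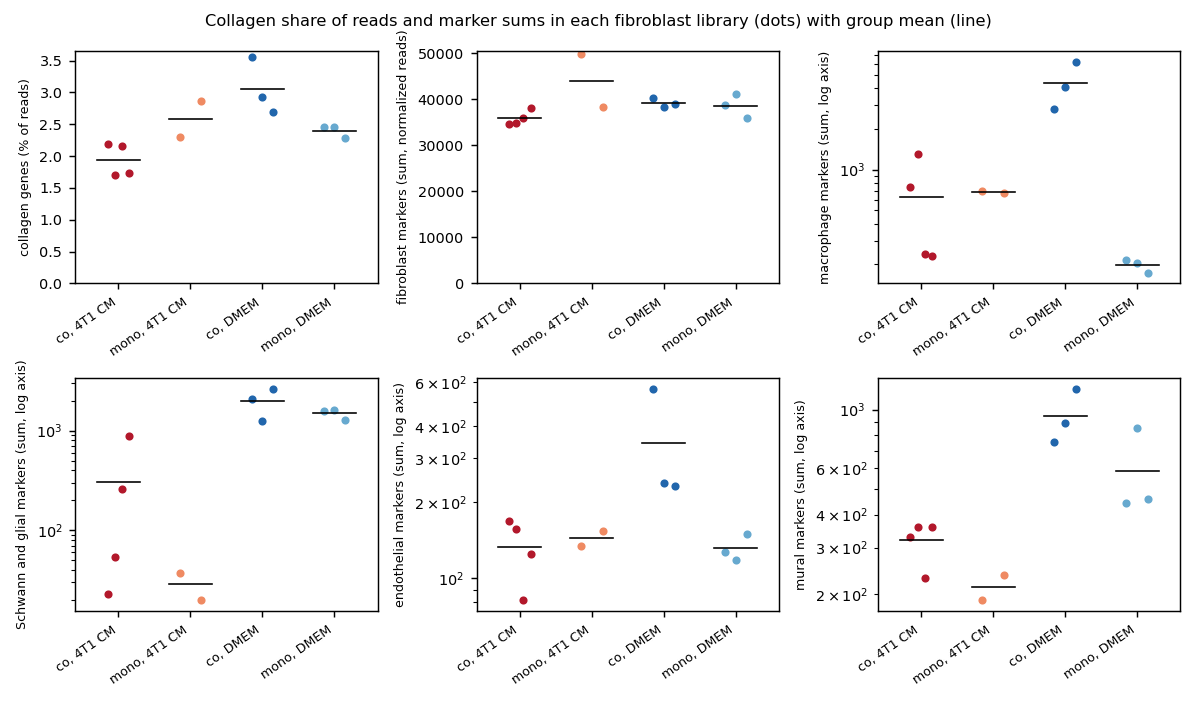
Share of reads on the 30 collagen chains (top left, in %) and summed normalized reads of fibroblast, macrophage, Schwann, endothelial and mural markers in each fibroblast library; dots are libraries, lines group means, and the macrophage, Schwann, endothelial and mural axes are logarithmic. The collagen share is 1.70 to 2.19% in co-cultures in 4T1 CM and 2.69 to 3.56% in co-cultures in DMEM, and the Schwann sums of the CM groups lie below those of the DMEM groups.

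Other genes of collagen making and assembly were taken from lists of the pathway, and are read against the 13.3% of all genes called in mono-culture and the 5.85% called in co-culture. Of 15 tested genes for folding, hydroxylation and secretion, 2 rose in mono-culture with 4T1 CM: P4ha2, a prolyl 4-hydroxylase subunit, by 1.05 (SE 0.19, adjusted p = 0.00368, limma), and Fkbp10, a collagen chaperone, by 0.64 (SE 0.16, adjusted p = 0.019, limma). In co-culture 1 of the 15 fell, P4ha3, by 0.71 (SE 0.19, adjusted p = 0.0422, limma). These shares, 13.3% and 6.67%, were near those of all genes. Of 3 other procollagen proteinases and enhancers, Adamts2, the procollagen N-proteinase, fell in co-culture by 1.34 (SE 0.23, adjusted p = 0.00415, limma). Of 8 collagen receptors and uptake genes, Itga11, a collagen-binding integrin chain of fibroblasts, fell in mono-culture by 1.83 (SE 0.48, adjusted p = 0.0234, limma) and in co-culture by 1.46 (SE 0.40, adjusted p = 0.0481, limma). Of 12 fibril assembly partners, 3 rose and 4 fell in mono-culture (58.3% called) and 3 rose and 3 fell in co-culture (50% called). Ogn and Postn fell in both cultures, and Dcn, Lum and Thbs1 rose in mono-culture. Dcn and Lum were also among the 3 that rose in co-culture. There Dcn was at 5989 to 7613 normalized reads in 4T1 CM and 2421 to 3445 in DMEM. Lum was at 18.3 to 57.4 and 4.16 to 14.3 in the same order.

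Sorted macrophages were examined for fibroblast RNA through the same genes. There 38 members were listed of 11822 genes and 29 were tested by edgeR on raw counts; between co-cultures and mono-cultures in 4T1 CM 24 were higher and 1 lower, where 25.9% of all tested genes passed, 14.0% higher and 12% lower. The median log2 change of the 29 was 6.09 against 0.02 over all genes, and 7 of 8 fibroblast markers were also higher, with a median of 6.11. Genes near 0 in mono-cultures, such as Col27a1 (mean 0.446 normalized reads) and Plod2 (0.294), could pass the count filter only through the co-cultures. For such genes the direction was largely fixed in advance, so these counts and medians describe levels and are no test. Scaled by fibroblast markers, fibroblast RNA made up an estimated 4.25, 5.46, 23.5 and 7.03% of macrophage co-cultures in 4T1 CM, 0.0390, 0.116, 0.204 and 0.0343% of mono-cultures in 4T1 CM, and 2.36, 2.69 and 7.68% of co-cultures in DMEM. Over the members the median level in macrophages relative to co-cultured fibroblasts was 4.35, 5.06, 26.0 and 6.59% in macrophage co-cultures in 4T1 CM, and 0 to 0.206% in mono-cultures. In each of these co-cultures the 2 estimates lay within 3 percentage points of each other.

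Several members were present in every library of macrophages grown alone. Col18a1 averaged 304 ± 57.4 normalized reads in macrophage co-cultures and 422 ± 91.5 in mono-cultures in 4T1 CM (SD, n = 4 each), a change of -0.48 (SE 0.17, adjusted p = 0.05 by edgeR); the lowest mono-culture, 347, lay inside the range of co-cultures, 257 to 379. This call sat on the threshold and was lost in 7 alternatives (adjusted p = 0.0514 to 0.139, edgeR). Scaled by depth, Col18a1 in mono-cultured macrophages was at 156% of the level of co-cultured fibroblasts in 4T1 CM. That fibroblast level was itself low, with a mean of 354 normalized reads against 1617 in co-cultures in DMEM. In co-cultured macrophages in DMEM, Col18a1 averaged 130 normalized reads and was at 11.7% of the fibroblast level there. The 2 media were not compared by a test in macrophages. Plod1 averaged 1142 ± 118 in macrophage co-cultures and 800 ± 67 in mono-cultures, and rose by 0.50 (SE 0.12, adjusted p = 0.00588, edgeR). P3h1 averaged 144 ± 67 in macrophage co-cultures and 59.8 ± 20.9 in mono-cultures, and rose by 1.23 (SE 0.33, adjusted p = 0.0137, edgeR). Relative to co-cultured fibroblasts in 4T1 CM, P3h1 was at 18.3% in macrophage co-cultures and 6.77% in mono-cultures, and Plod1 at 91.8% and 57.3%. The estimated share of fibroblast RNA was 4.25 to 23.5% in these co-cultures, and its part in both rises was not tested. Plod3 averaged 1337 ± 260 and 1089 ± 181, Crtap 112 ± 19.8 and 83.9 ± 20.4, Col20a1 42.9 ± 8.20 and 29.2 ± 6.94, and Loxl3 17.9 ± 11.1 and 12.4 ± 2.52, in macrophage co-cultures and in mono-cultures, without passing. The type I and III chains were near 0 there: Col1a2 in mono-cultured macrophages was at 0.0669% of its level in co-cultured fibroblasts. In the fibroblast libraries the estimated macrophage share was 0.0150 to 0.492% in co-cultures in 4T1 CM, 0.154 and 0.184% in mono-cultures in 4T1 CM, 0.976 to 1.84% in co-cultures in DMEM and 0.0109 to 0.0424% in mono-cultures in DMEM.

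**Figure D4:**
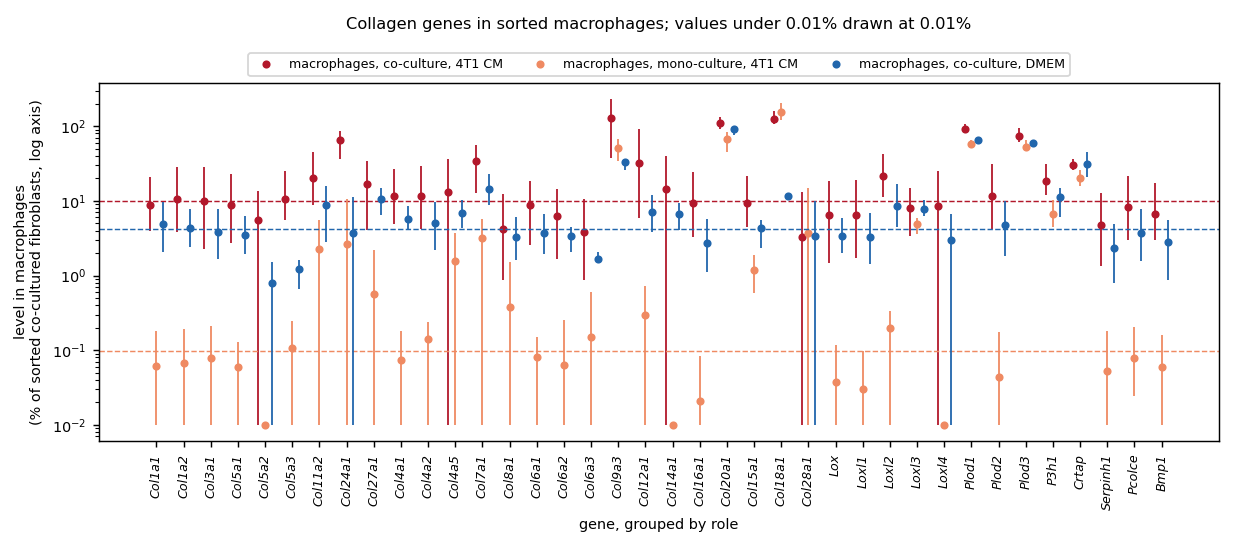
Level of each member in sorted macrophages as a percentage of its level in sorted co-cultured fibroblasts of the same medium (log axis, values under 0.01% drawn at 0.01%); dots are group means, bars run from the lowest to the highest library, and dashed lines are each group's mean estimated share of fibroblast RNA. Most genes lie near the dashed line of their group, while Col18a1, Col20a1, Col9a3, Plod1, Plod3, Crtap, P3h1 and Loxl3 stand above it in mono-cultured macrophages, at 3.64% or more in every library.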

How the data were processed

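The series has 26 libraries of 3' end mRNA sequencing; 12 fibroblast and 11 macrophage libraries were used. Macrophages came with the authors' raw count table, and both cell types with a normalized signal that the authors deposited, each gene's count divided by 1 size factor per library. Per the submitters' processing notes, the tools were bcl2fastq, STAR 2.4.2a and HTSeq and the build mm10, with no role or order given. For fibroblasts, 100% of deposited signal values came out as whole reads within 0.001 reads once multiplied by the library's factor. A listed gene has at least 6 reads in some library, so rarer genes are not covered. Macrophage libraries held 1434695 to 4140985 reads. For macrophages, 3 columns whose heading names DMEM but no co-culture match no sample title and were not used, and the day 0 macrophages were not analysed here.

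R 4.3.3 was used. The fibroblast fit held all 12 libraries and 12401 genes (a signal of 5 or more in 2 or more libraries) and used limma 3.58.1 with a trend and two-sided moderated tests, on log2 of the signal after adding 1; changes of low genes are understated on this scale. Raw macrophage counts of 9617 genes went into edgeR 4.0.16 (quasi-likelihood, TMM factors, filterByExpr). A gene is called when its p, adjusted by Benjamini-Hochberg over all tested genes, is under 0.05. The mono-cultures in 4T1 CM are 2 libraries and borrow their spread from the others. edgeR and DESeq2 1.42.0 on the recovered reads, quantile normalization, a pseudocount of 5, no filter, each library left out and a replicate block were alternatives; leaving out pairs of co-cultures in 4T1 CM was chosen after seeing the data. Shares of fibroblast or macrophage RNA are the median over markers of a library's depth-scaled reads relative to the sorted cells of the other type. Every library value is given for members called in a comparison with a group mean of at least 20 normalized reads. The members, lists and comparisons were chosen with earlier results of these data known. The code was tested on simulated data. Gene positions are from GENCODE vM21 and start regions from RefSeq, on GRCm38.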

Additional observations from a re-analysis of the deposited data

Results flagged for a closer look

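Among the genes that passed a test, sets of 4 libraries were searched for a library far from the other 3 (Dixon's ratio). Only sets whose highest value reached 20 normalized reads were searched, and 10 of 36 held such a library. A rate of about 1 in 20 applies to independent sets of normal values. Sets that share a library are not independent, so this rate is no baseline here. In fibroblasts the flagged set was Col27a1, with 143 normalized reads in co-culture in 4T1 CM 4 against 78.3 to 86.0 in the other co-cultures in 4T1 CM. The 9 others were all in macrophage co-culture in 4T1 CM 3, the library with an estimated fibroblast share of 23.5%, where the other 3 had 4.25 to 7.03%. Its normalized reads were 876 for Col1a1, 4320 for Col3a1 and 416 for Col5a1. It held 105 for Col5a3, 41.4 for Col6a3 and 198 for Col12a1. Col16a1 stood at 223, Col15a1 at 27.1 and Bmp1 at 255 in the same library. The other 3 macrophage co-cultures in 4T1 CM had at most 264 for Col1a1, 985 for Col3a1 and 103 for Col5a1. Without this library 22 members were called higher or lower in macrophages, against 25 with it. The share of all genes called without it is not given.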

How the results depend on the processing

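No result changed direction under any alternative. With 1 library left out at a time, the members called for 4T1 CM numbered 6 to 15 in mono-culture (6 without mono-culture in 4T1 CM 1) and 6 to 14 in co-culture (6 and 8 without co-culture in DMEM 1 and 2); those called for co-culture numbered 0 to 1 in DMEM and 0 to 1 in 4T1 CM, the interaction 0 to 2 and macrophages 22 to 25. DESeq2 called 2 members for co-culture in DMEM, 2 in 4T1 CM and 8 for the interaction, against 1, 0 and 0 by limma. With co-cultures in 4T1 CM 1 and 2 left out, chosen after seeing the data, 8 were called for 4T1 CM in co-culture, 1 for co-culture in 4T1 CM (Col8a1) and 6 for the interaction; with 3 and 4 left out the interaction gave 1 (Col6a2). The cause was not tested. A pseudocount of 5, no filter, quantile normalization and edgeR left these counts within 1.5 times. The share of all genes called under each alternative is not given, so the member counts in this paragraph have no baseline here. Whether libraries with the same replicate number share mice was not tested. In their deviations from group means, 15 same-number fibroblast pairs correlated at -0.241 to 0.194, and fibroblast pairs with another number at -0.294 to 0.199. Of 12 fibroblast libraries, 3 correlated best with their own number. The 10 same-number macrophage pairs correlated at -0.180 to 0.456, and macrophage pairs with another number are not given. Macrophage library 3 had the highest estimated fibroblast share in co-cultures in 4T1 CM (23.5%), co-cultures in DMEM (7.68%) and mono-cultures in 4T1 CM (0.204%). With the replicate block 12 members were called in mono-culture, 12 in co-culture, 1 for co-culture in DMEM, 0 in 4T1 CM, 0 for the interaction and 25 in macrophages. In co-culture the block lost Col3a1 (adjusted p = 0.0829) and Col5a1 (adjusted p = 0.0651) and added Col24a1 (adjusted p = 0.0439, limma). Genes with few reads, such as Col8a2, Col9a2, Col14a1, Col23a1 and Col28a1, are limited by depth, and the group of 2 limits all mono-culture results.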
